A study of Mus musculus with 6 samples.

Results

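Genes of cellular iron uptake and export, the iron regulatory proteins (IRPs) that control some of them, and partners of both were followed in J774 mouse macrophages after knockdown of NCOA4. The set holds 10 of the 55487 gene identifiers measured. Its members are the uptake genes Tfrc, Slc11a2 and Steap3, the exporter Slc40a1, the iron regulatory proteins Aco1 and Ireb2, their degrader Fbxl5, the kinase gene Cdc42bpa, and the iron chaperones Pcbp1 and Pcbp2. They were chosen by name for their roles in iron handling, with earlier results of these data known. Of the 10 genes, 9 had a mean of at least 0.5 transcripts per 1000000 (TPM) over the 6 libraries and were tested together with all other such genes, 13829 in total. Cdc42bpa was listed at 0 in every library and was not tested.

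J774 is an established macrophage cell line of the mouse. Small interfering RNAs (siRNAs) are short duplexes, each of which directs the cell to degrade the transcript of matching sequence. Cells in regular growth medium were transfected with control siRNA or with NCOA4 siRNA by liposomes, with 3 biological replicates of each, and no iron, chelator or other agent is named for these 6 libraries. The control cells thus carried an siRNA and the liposome reagent too, both groups share a single cell line, and the methods describe 1 siRNA against NCOA4. Poly(A) RNA of each culture was sequenced. The depth was 15071125 to 17757734 reads per library on the genes whose reads could be rebuilt from TPM, which held 94.0 to 94.7% of all TPM.

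Iron regulatory proteins are cytosolic RNA-binding proteins that bind iron-responsive elements (IREs), short hairpins in untranslated regions (UTRs), when cytosolic iron is scarce. Binding to a hairpin in the 5′ UTR blocks translation, as for ferroportin and ferritin, whereas binding to hairpins in the 3′ UTR of the transferrin receptor transcript protects it from decay. IRP1, the product of Aco1, turns into an aconitase by taking up an iron-sulfur cluster, and IRP2, the product of Ireb2, is degraded through FBXL5 when iron is plentiful. NCOA4 is the cargo receptor that brings ferritin to the lysosome, where its iron is set free. Macrophages take up iron with old red cells and hand it on to the plasma through ferroportin. Protein abundance was not measured in these libraries, so the values here are those of transcripts.

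The hairpin sequences are shown first, since IRPs act on members of the set through such elements. Annotated UTRs of GENCODE M21 (GRCm38) were searched on the transcript strand for a C, any 5 bases, CAGTGN (N being any base but G) and another 5 bases, with at least 4 of the 5 bases before CAGTGN able to pair with those after it (G:T pairs included). In the sequences the capitals mark the bulged C and the loop, and lower case the stem and 6 flanking bases on each side. The Tfrc 3′ UTR held 4 such sequences on the plus strand of chromosome 16, at chr16:32631219-32631247, chr16:32631598-32631626, chr16:32631663-32631691 and chr16:32631710-32631738, each with 5 of 5 pairs, in 1 of the 3 coding transcripts of the gene. Slc40a1 had 1 in its 5′ UTR on the minus strand at chr1:45925465-45925493, with 5 of 5 pairs, in 1 of 4 coding transcripts. Slc11a2 had 1 in its 3′ UTR on the minus strand at chr15:100395153-100395181, with 4 of 5 pairs, in 1 of 6 coding transcripts. They are shown 5′ to 3′, with those of Tfrc numbered along the transcript.
Tfrc hairpin 1: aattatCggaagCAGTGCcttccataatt
Tfrc hairpin 2: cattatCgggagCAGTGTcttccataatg
Tfrc hairpin 3: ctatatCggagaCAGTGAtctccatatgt
Tfrc hairpin 4: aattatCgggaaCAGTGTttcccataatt
Slc40a1: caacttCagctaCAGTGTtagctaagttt
Slc11a2: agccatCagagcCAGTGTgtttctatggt

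No sequence of these letters was found in the annotated UTRs of the other 7 genes of the set, which includes Cdc42bpa. Epas1 and Pfn2, listed below among transcripts with described IREs, had no match either. The lack of a match thus does not show that a gene has no IRE, and a gene may hold more than those matched. The search found at least 1 match in the 5′ UTRs of 143 of 20597 genes (0.694%) and in the 3′ UTRs of 664 of 20979 genes (3.17%). A match describes letters and their pairing, and no binding was measured. Gene-level TPM adds up all transcripts of a gene, so it does not tell transcripts with a match from those without.

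The transcript of the targeted gene was lower in all 3 NCOA4 siRNA libraries. In the order of replicates 1 to 3, as for every gene in the text, Ncoa4 was at 19.7, 22.5 and 22.4 TPM with control siRNA and at 9.63, 8.60 and 8.88 TPM with NCOA4 siRNA, a log2 fold change of -1.21 (adjusted p = 0.00127, limma with Benjamini-Hochberg adjustment). The macrophage marker genes were all measured in every library. Their summed level was 8710 to 8908 TPM in the control libraries and 9106 to 9211 TPM in the NCOA4 siRNA libraries. The largest part of this sum was Lyz2, with means of 4885 and 5409 TPM, which did not pass (adjusted p = 0.161, limma). Cd68 and Cd14, the next largest, had lower means with NCOA4 siRNA (1832 and 1570 TPM, 1174 and 975 TPM). The sum thus does not stand for the markers as a whole. Of the 10 markers 4 rose and 1 fell at an adjusted p under 0.05, which 5.42% of all genes tested reached in either direction (limma). Of 12 markers of other lineages, 8 were at 0 in all libraries, among them Cd3e, Krt8 and Alb, and the sum of the 12 was 19.4 to 25.8 and 15.8 to 20.2 TPM, respectively. Of the 12 only S100a8 was high enough to be tested, and it made up most of that sum. S100a8 was at 23.8, 25.2 and 18.8 TPM with control siRNA and at 19.4, 15.3 and 19.6 TPM with NCOA4 siRNA. Its groups overlapped (log2 fold change -0.31, adjusted p = 0.249, limma). In bulk RNA, fewer cells of a state and less RNA per cell cannot be told apart.

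Among the members, the exporter rose, the transferrin receptor was higher in every NCOA4 siRNA library without passing the adjusted test, and the IRP genes and their degrader differed by less than their replicate spread. With limma on log2(TPM + 0.5), 1 of the 9 members tested had an adjusted p under 0.05 (Slc40a1), where 5.42% of all genes tested did (750 of 13829), made up of 3.11% that were higher and 2.31% that were lower. This background count of 750 itself depended on single libraries, at 156, 127 and 182 genes without NCOA4 siRNA replicate 1, 2 or 3, at 495 and 380 without control replicate 2 or 3, and at 807 without control replicate 1. At an unadjusted p under 0.05, 3 members passed against 21.6% of all genes. None of the 9 passed both the adjusted p and a fold change above 1.5 in limma (0 in limma-voom too), the thresholds used for calling genes, which 1.18% of all genes passed (119 higher and 44 lower, or 105 and 68 with libraries centred on their medians). The groups did not overlap for 2 members that lay higher and 1 that lay lower, where 28.4% of all genes did not overlap (16.6% higher and 11.8% lower). The median log2 fold change was 0.00 over the 9 members and 0.03 over all genes tested.

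**Figure D1:**
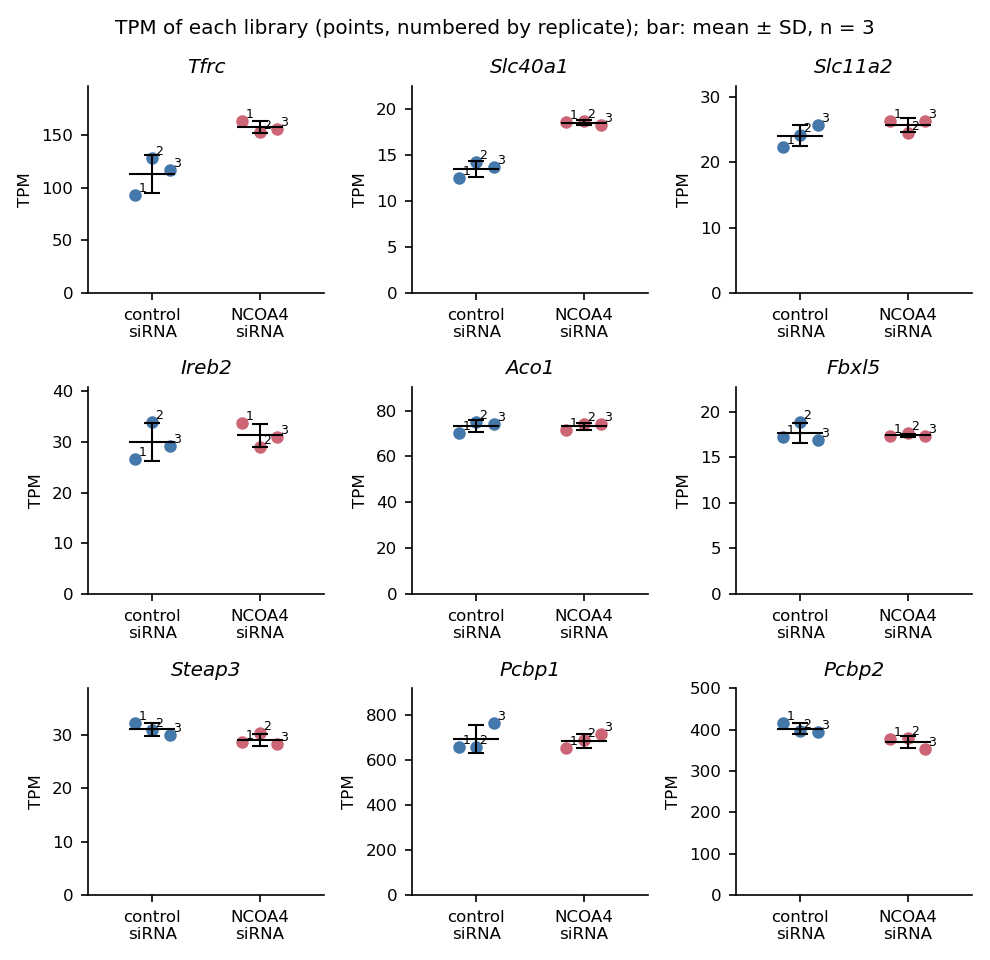
TPM of the 9 tested members, 1 panel per gene, with control siRNA libraries in blue and NCOA4 siRNA libraries in red. Points are single libraries numbered by replicate, and bars are the mean and SD of 3. For Tfrc and Slc40a1 all 3 red points lie above all blue points, for Pcbp2 they lie below, and for the other 6 genes the groups overlap.

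Tfrc encodes transferrin receptor 1, which carries iron-loaded transferrin from the cell surface into endosomes, and the matches found in its 3′ UTR are those printed above. The gene (ENSMUSG00000022797, plus strand, chr16:32608920-32632794) was at 92.9, 128 and 117 TPM with control siRNA and at 164, 153 and 155 TPM with NCOA4 siRNA. All NCOA4 siRNA libraries were above all control libraries, and control replicate 1 was the lowest of the 6. The means were 113 ± 18.0 and 157 ± 5.51 TPM (SD, n = 3 each), so that the control libraries were the more scattered. The log2 fold change was 0.49 (standard error 0.112, 95% interval 0.23 to 0.76), with an unadjusted p of 0.00327 and an adjusted p of 0.0549 from limma with Benjamini-Hochberg adjustment, just above the threshold. The exact two-sided permutation test gave p = 0.1, the smallest p that 3 libraries against 3 can give. Each value rests on 3299 to 5874 reads, for which counting error is at most 1.74% of the value, far less than the spread between control libraries.

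The side of the threshold on which Tfrc falls changed with 1 library and with the scaling. Without control replicate 1 the log2 fold change was smaller, 0.36, yet the adjusted p was 0.0196, and without control replicate 2 the values were 0.59 and 0.0449 (limma, Benjamini-Hochberg). The adjusted p was also under 0.05 with median centring (0.0452) and in limma-voom on rebuilt reads (0.000951). It was above 0.05 without NCOA4 siRNA replicate 1, 2 or 3 (0.195, 0.167 and 0.161) and without control replicate 3 (0.106). The same held with a replicate block (0.122), without a filter (0.103), without an eBayes trend (0.115) and with either other pseudocount (0.0550 and 0.0549). In all it passed in 7 of 16 alternative fits, with adjusted p between 0.000951 and 0.195.

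Steap3 and Slc11a2 act after transferrin receptor in the endosome, where STEAP3 reduces ferric iron and the divalent metal transporter DMT1, encoded by Slc11a2, moves the ferrous ion into the cytosol. Slc11a2 (ENSMUSG00000023030, minus strand, chr15:100387898-100425072) was at 22.4, 24.2 and 25.7 TPM with control siRNA and at 26.4, 24.5 and 26.4 TPM with NCOA4 siRNA. The groups overlapped, and the log2 fold change was 0.10 (95% interval -0.06 to 0.25, adjusted p = 0.452, limma). Steap3 (ENSMUSG00000026389, minus strand, chr1:120190757-120272705) was at 32.4, 31.0 and 29.9 TPM against 28.7, 30.4 and 28.2 TPM, which overlap as well. Its log2 fold change was -0.09 (95% interval -0.22 to 0.03, adjusted p = 0.359, limma). Both intervals lie within a fold of 1.5 in either direction.

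Slc40a1 encodes ferroportin, the only known exporter of cellular iron in mammals. Its 5′ UTR match is printed above. The gene (ENSMUSG00000025993, minus strand, chr1:45908068-45926523) was at 12.5, 14.2 and 13.6 TPM with control siRNA and at 18.6, 18.7 and 18.2 TPM with NCOA4 siRNA. The NCOA4 siRNA libraries were close to each other and all lay above the control libraries. The means were 13.5 ± 0.859 and 18.5 ± 0.264 TPM (SD, n = 3 each), or 138% of control. Slc40a1 thus rose by a log2 fold change of 0.45 (standard error 0.0630, 95% interval 0.30 to 0.60, adjusted p = 0.0133, limma with Benjamini-Hochberg adjustment), which is a fold of 1.36 and below the 1.5 used for calling. The values rest on 640 to 989 reads, with a counting error of at most 3.95%. With any 1 of the NCOA4 siRNA libraries left out, the log2 fold change stayed between 0.44 and 0.46, but the adjusted p was 0.0765 without replicate 1, 0.0797 without replicate 2 and 0.0665 without replicate 3.

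Both differences were also seen in ratios that do not depend on the scaling between libraries. Within each library Tfrc and Slc40a1 were also set against the commonly used reference genes Tbp, Actb and Hprt, a comparison added after the values had been seen. The log2 difference between groups was 0.54, 0.63 and 0.52 for Tfrc and 0.51, 0.60 and 0.49 for Slc40a1, and the groups did not overlap for either gene with any of the 3 references (exact permutation test, p = 0.1 each). Actb itself was at 4578 to 4714 TPM in the control libraries and at 4084 to 4310 TPM in the NCOA4 siRNA libraries, so the ratios to it are the largest.

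**Figure D2:**
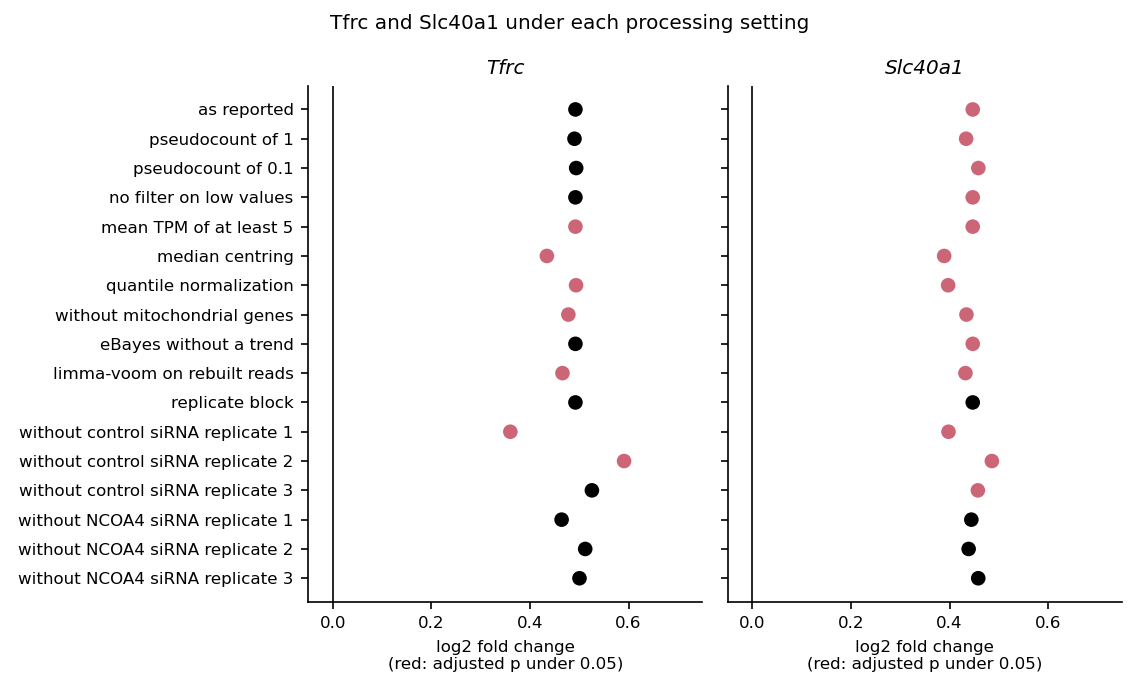
Log2 fold change (NCOA4 siRNA minus control siRNA, x axis) of Tfrc and Slc40a1 as reported and under the 16 alternative fits (y axis), with an adjusted p under 0.05 in red. Tfrc ranged from 0.36 to 0.59 and Slc40a1 from 0.39 to 0.49, all above 0, and Slc40a1 lost the adjusted threshold with the replicate block and in the 3 fits that lack an NCOA4 siRNA library.

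The uptake receptor and the exporter were higher to a like extent, and their ratio did not differ beyond the spread between libraries. Tfrc was 7.42, 9.02 and 8.58 times the TPM of Slc40a1 with control siRNA and 8.80, 8.17 and 8.54 times with NCOA4 siRNA. The groups overlapped, with a log2 difference of 0.03 (exact two-sided permutation test, p = 0.9, and 0.9 after adjustment over the 5 ratios tested). A test of 3 against 3 cannot go below 0.1, so this p does not show that the ratio was equal.

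The IRP genes and the gene of their degrader did not pass the test in either direction. Aco1, the gene of IRP1 (ENSMUSG00000028405, plus strand, chr4:40143081-40198338), was at 70.3, 75.3 and 74.0 TPM with control siRNA and at 71.5, 74.1 and 74.2 TPM with NCOA4 siRNA. The libraries of both groups were interleaved. The log2 fold change was 0.00 (95% interval -0.10 to 0.10, adjusted p = 0.987, limma), the narrowest interval of the set. Ireb2, the gene of IRP2 (ENSMUSG00000032293, plus strand, chr9:54863789-54912530), was at 26.6, 34.0 and 29.1 TPM against 33.7, 29.1 and 31.0 TPM. Here the replicates of each group spread over much of the range of the other, and the log2 fold change was 0.07 (95% interval -0.17 to 0.30, adjusted p = 0.738, limma). Fbxl5 encodes the substrate receptor of the ubiquitin ligase that degrades IRP2, and its protein senses iron itself. The gene (ENSMUSG00000039753, minus strand, chr5:43744615-43821638) was at 17.2, 18.9 and 16.8 TPM with control siRNA and at 17.3, 17.6 and 17.3 TPM with NCOA4 siRNA. Its NCOA4 siRNA values all fell inside the range of the control values, with a log2 fold change of -0.02 (95% interval -0.16 to 0.13, adjusted p = 0.900, limma).

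The ratios between these regulators within a library overlapped between the groups too. Ireb2 was 0.379 to 0.452 times Aco1 with control siRNA and 0.392 to 0.472 times with NCOA4 siRNA (log2 difference 0.07, exact permutation test, p = 0.6). Fbxl5 was 0.556 to 0.647 times Ireb2 with control siRNA and 0.514 to 0.606 times with NCOA4 siRNA (log2 difference -0.09, exact permutation test, p = 0.5). After adjustment over the 5 ratios both p-values were 0.75.

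Pcbp1 and Pcbp2 are poly(C)-binding proteins that bind RNA and also carry iron in the cytosol, PCBP1 to ferritin and PCBP2 between DMT1, ferroportin and other partners. Pcbp1 (ENSMUSG00000051695, minus strand, chr6:86524492-86526321) was at 661, 657 and 767 TPM with control siRNA and at 656, 688 and 717 TPM with NCOA4 siRNA, and the groups overlapped. Its log2 fold change was -0.01 (95% interval -0.18 to 0.15, adjusted p = 0.929, limma). Pcbp2 (ENSMUSG00000056851, plus strand, chr15:102470539-102500061) was at 417, 396 and 394 TPM with control siRNA and at 376, 380 and 353 TPM with NCOA4 siRNA. Every NCOA4 siRNA library was below every control library, but the difference was small, 92.0% of control, and missed the adjusted threshold. The log2 fold change was -0.12 (standard error 0.0451, 95% interval -0.23 to -0.01, unadjusted p = 0.0325, adjusted p = 0.186, limma with Benjamini-Hochberg adjustment). Within each library, the log2 difference of Pcbp2 was -0.07 against Tbp, where the groups did not overlap, -0.09 against Hprt and 0.02 against Actb, where they did. Pcbp2 shares 1576 exonic bases with the antisense gene Map3k12, which was at 4.06 to 5.80 TPM, and whether the counting used strand is not given in the sources used here. The ratio of Pcbp1 to Pcbp2 was 1.58 to 1.95 with control siRNA and 1.74 to 2.03 with NCOA4 siRNA (log2 difference 0.11, exact permutation test, p = 0.4). Steap3 was 1.17 to 1.45 times Slc11a2 with control siRNA and 1.07 to 1.24 times with NCOA4 siRNA, the largest of the 5 differences in size (log2 difference -0.19, exact permutation test, p = 0.2, adjusted 0.75), and these groups overlapped too.

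**Figure D3:**
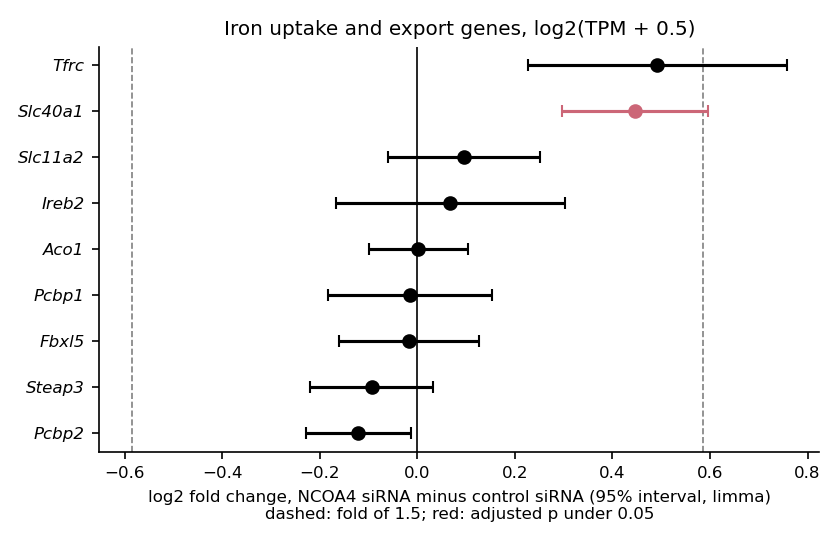
Log2 fold change of the 9 tested members (x axis, NCOA4 siRNA minus control siRNA on log2(TPM + 0.5)) with the 95% interval from limma, and dashed lines at a fold of 1.5 in either direction. Only the upper ends of Tfrc (0.76) and Slc40a1 (0.60) cross a dashed line, and the intervals of the other 7 genes lie between them.

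Cdc42bpa encodes a kinase of the cytoskeleton whose human transcript has been described to carry an IRE in its 3′ UTR. The gene (ENSMUSG00000026490, plus strand, chr1:179960472-180165603) had 0 reads in all 6 libraries, which allows up to 0.0230 to 0.0267 TPM per library, the worth of 3 reads. Its neighbours on chromosome 1 were measured, Psen2 at 47.8 to 53.5 TPM and Ahctf1 at 30.4 to 34.4 TPM, and so were its paralogs Cdc42bpb at 33.0 to 35.3 TPM and Cdc42bpg at 15.9 to 18.6 TPM. The antisense gene Coq8a, which shares 366 exonic bases with it, was at 1.34 to 2.99 TPM.

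By level, the chaperones came first. TPM is per base of all exons of a gene, and on this scale the means over 6 libraries fell in the order Pcbp1 (691), Pcbp2 (386), Tfrc (135), Aco1 (73.2), Ireb2 (30.6), Steap3 (30.1), Slc11a2 (24.9), Fbxl5 (17.5) and Slc40a1 (15.98). The ranges over libraries overlapped between Ireb2 and Steap3 and between Fbxl5 and Slc40a1, and not between the other neighbours in this order. On this scale both of these pairs changed order between the groups. Slc40a1 was below Fbxl5 in all 3 control libraries and above it in all 3 NCOA4 siRNA libraries, and the mean of Ireb2 was below that of Steap3 with control siRNA (29.9 and 31.1 TPM) and above it with NCOA4 siRNA (31.3 and 29.1 TPM). The order depends on the length by which reads are divided, since for several genes the exons of all transcripts together are far longer than the principal transcript. For Pcbp2 they span 5203 bases against 1499, for Fbxl5 9740 against 2858 and for Slc40a1 9000 against 3370. Per base of the principal transcript, an alternative added after the values had been seen, Pcbp2 came first (1340) before Pcbp1 (691) and Tfrc (171), and Fbxl5 moved up from place 8 to place 5 (59.7). On that scale Slc40a1 was at 35.9 with control siRNA and 49.4 with NCOA4 siRNA, and its range overlapped those of Ireb2, Slc11a2 and Steap3. Neither of the 2 pairs changed order there. Fbxl5 (57.4 to 64.4) lay above Slc40a1 (33.4 to 50.0) in every library, and Ireb2 (43.7 to 55.8) above Steap3 (31.3 to 35.9). The fold change of a gene between groups is the same on both scales.

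**Figure D4:**
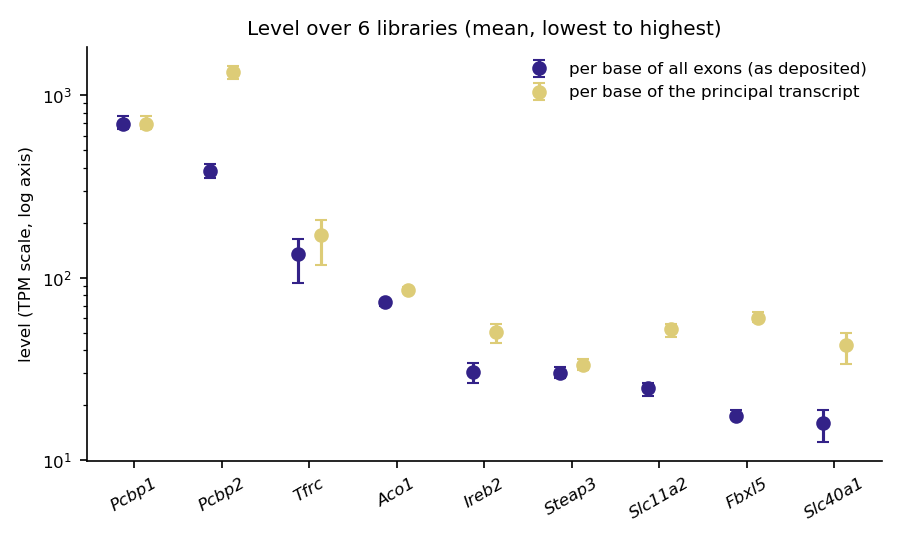
Mean level of the 9 tested members over the 6 libraries on a log axis, with bars from the lowest to the highest library, per base of all exons as deposited (dark) and per base of the principal transcript (light). Pcbp2 rises from 386 to 1340 and Fbxl5 from 17.5 to 59.7 between the scales, while Pcbp1 stays at 691.

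The other genes of the iron pathway were counted in lists. Over all genes tested, 3.11% were higher and 2.31% lower at an adjusted p under 0.05 (limma). In the list of iron regulatory proteins and their turnover, 0 of 12 genes tested had an adjusted p under 0.05 in limma (0 in limma-voom too, and 3 at an unadjusted p under 0.05). The median log2 fold change of the list was 0.05. The smallest adjusted p-values of this list were those of Mms19 (log2 fold change 0.16, adjusted p = 0.123, limma) and Narfl (0.19, adjusted p = 0.129, limma), both of which act in the assembly of cytosolic iron-sulfur proteins.

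In the list of endosomal and cell surface uptake, 11 of 15 genes were tested, 1 rose and 1 fell, and the median was 0.08. Slc11a1, which encodes the phagosomal metal transporter NRAMP1, was at 164, 141 and 152 TPM with control siRNA and at 194, 197 and 201 TPM with NCOA4 siRNA. All NCOA4 siRNA libraries were higher, with a log2 fold change of 0.38 (adjusted p = 0.0175, limma). Slc39a14, a zinc transporter that also takes up iron not bound to transferrin, was at 29.3, 30.9 and 29.8 TPM against 25.6, 25.7 and 25.4 TPM. It fell by 0.23 on the log2 scale (adjusted p = 0.0348, limma). The transferrin gene Trf averaged 122 ± 10.1 TPM in the control libraries and 141 ± 3.17 TPM in the NCOA4 siRNA libraries (SD, n = 3), and did not pass (log2 fold change 0.21, adjusted p = 0.124, limma). It was named after its values were seen.

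In the export list only 3 of 8 genes were tested, and 2 rose, Slc40a1 and Cp, with a median of 0.45, which is the value of Slc40a1 itself. Ank1, the remaining gene tested, did not pass (log2 fold change 0.02, adjusted p = 0.896, limma). Cp encodes ceruloplasmin, the ferroxidase that works beside ferroportin. Cp was low, at 0.928, 0.759 and 0.481 TPM with control siRNA and at 1.87, 2.15 and 1.78 TPM with NCOA4 siRNA. The groups were well apart, at a log2 fold change of 1.01 (adjusted p = 0.0437, limma), on 24 to 112 reads. The hepcidin gene Hamp had at most 1 read in any library, and Hephl1, Hamp2 and Rnf217 were at 0 throughout.

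Among chaperones and storage genes, 2 of 9 fell, Fth1 and Ncoa4 itself, with a median of -0.11. Fth1, the ferritin heavy chain gene, whose 5′ UTR also held a match with 5 of 5 pairs, was at 3113, 2999 and 3046 TPM with control siRNA and at 2604, 2594 and 2591 TPM with NCOA4 siRNA. All NCOA4 siRNA libraries were lower, with a log2 fold change of -0.23 (adjusted p = 0.0257, limma). Ftl1, the light chain gene, was at 6346 to 7708 TPM and at 6718 to 7223 TPM, with overlapping groups (log2 fold change -0.04, adjusted p = 0.830, limma). Of 12 transcripts with described IREs, 9 were tested, Slc40a1 rose and Fth1 fell, and the median was 0.06.

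A list of factors for Tfrc mRNA decay and Slc40a1 transcription had 1 of 10 genes past the threshold and a median of 0.07. Hif1a, the hypoxia-inducible factor subunit, fell by 0.31 on the log2 scale (adjusted p = 0.0361, limma), from 73.4, 78.2 and 69.3 TPM to 61.3, 60.6 and 55.5 TPM. Zc3h12a, which encodes the RNase Regnase-1 that degrades Tfrc mRNA, and Bach1, a repressor of Slc40a1, did not pass, with log2 fold changes of 0.15 (adjusted p = 0.519) and 0.26 (adjusted p = 0.0881, limma). Both were named after their values were seen.

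These list calls depended on each of the NCOA4 siRNA libraries, and on control libraries too. With any 1 of the NCOA4 siRNA libraries left out, none of Slc11a1, Slc39a14, Cp, Fth1 and Hif1a had an adjusted p under 0.05 (limma), while the direction held for each of them and Ncoa4 passed in all cases. Cp ranged from 0.86 to 1.13 in these and the other fits without 1 library, Slc11a1 from 0.32 to 0.43, Slc39a14 from -0.24 to -0.21, Fth1 from -0.25 to -0.22 and Hif1a from -0.36 to -0.27. Over all 6 fits without 1 library, Slc11a1 passed in 2, Slc39a14, Cp and Fth1 in 1 each, and Hif1a in 0.

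Macrophage markers moved with the groups, and their part in the results above was not tested. Mrc1, the mannose receptor gene, was at 88.6, 97.0 and 89.8 TPM with control siRNA and at 167, 168 and 165 TPM with NCOA4 siRNA, the largest change of the list (log2 fold change 0.86, adjusted p = 0.00118, limma). Fcgr1, an Fc receptor gene, rose by 0.59 (adjusted p = 0.00436), Adgre1, which encodes F4/80, by 0.61 (adjusted p = 0.0248) and Csf1r, the receptor gene for the growth factor CSF1, by 0.31 (adjusted p = 0.0218), and the lipopolysaccharide co-receptor gene Cd14 fell by 0.27 (adjusted p = 0.0361, limma for each). The median of the 10 markers was 0.20. With any 1 of the NCOA4 siRNA libraries left out, Mrc1 and Fcgr1 still passed, while Adgre1, Csf1r and Cd14 did not, though their direction held. Over all 6 fits without 1 library, Adgre1 and Csf1r passed in 3 each and Cd14 in 1.

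**Figure D5:**
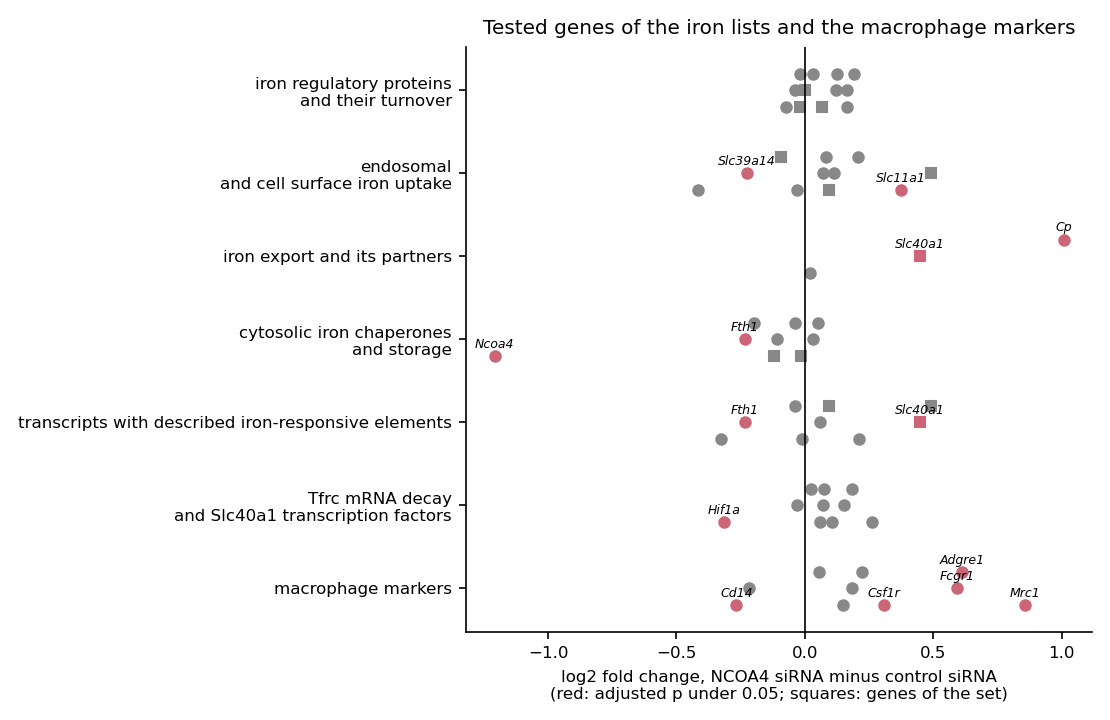
Log2 fold change (x axis, NCOA4 siRNA minus control siRNA) of every tested gene in 6 iron lists and in the macrophage markers (y axis), with genes at an adjusted p under 0.05 in red and named, and members of the set as squares. The IRP list holds no red point, the export list holds Slc40a1 and Cp at 0.45 and 1.01, and the macrophage markers hold 4 red points above 0 and 1 below.

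Finally, the genes that carry an IRE-like sequence by the same search were read beside the members. Of 87 tested genes with a match in the 5′ UTR, 10 had an adjusted p under 0.05 (11.5%), 5 higher and 5 lower, with a median of -0.00. The smallest adjusted p-values were those of Epb41, a protein of the membrane skeleton (log2 fold change -0.37, adjusted p = 0.00735), of Slc40a1, and of Flrt2, a membrane protein of the leucine-rich repeat family (-0.33, adjusted p = 0.0218, limma for each). Of 441 tested genes with a match in the 3′ UTR, 22 passed (4.99%), 13 higher and 9 lower, with a median of 0.03. Here the smallest were Fam49b (-0.76, adjusted p = 0.00234), Sema4a, a semaphorin gene (0.66, adjusted p = 0.00234), and Rassf2 (0.48, adjusted p = 0.00538, limma for each). With all 5 pairs required, 16 and 64 tested genes were left, of which 2 and 2 passed, Slc40a1 and Fth1 in the 5′ UTR and Pdcd4 and Mlec in the 3′ UTR. Over all genes tested, with or without an annotated UTR, the share was 5.42%, the shares were not tested against each other, and all of them fell when an NCOA4 siRNA library was left out. Only 10646 of the tested genes had a 5′ UTR to search and 10758 a 3′ UTR, and the share among these was not computed.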

How the data were processed

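RNA of J774 cells transfected with control siRNA or NCOA4 siRNA (3 biological replicates each) was sequenced from stranded poly(A) libraries. The authors deposited TPM per gene for each library, that is, reads per gene length scaled to 1000000, with no scaling between libraries. The submitters' processing notes name Trimmomatic (0.33), FastQC, HISAT2 (2.1.0), featureCounts, edgeR and build mm10, and the strand setting of the counting is not given in the sources used here. Symbols and positions were taken from GENCODE M21 (GRCm38), which named 55227 of 55487 identifiers.

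The 13829 genes whose TPM averaged 0.5 or more were fitted on log2(TPM + 0.5) with limma (3.58.1, R 4.3.3; lmFit, eBayes with a trend), with Benjamini-Hochberg adjustment over all of them and no block. Fold changes are on this scale, which understates low genes. Single genes and ratios had exact two-sided permutation tests over 20 arrangements. The fit was tested on simulated data with changes larger than those of the members, so that test does not cover changes as small as theirs. Whole reads were rebuilt from TPM and exon length for 20768 of 21096 genes above 0 (98.4%, tolerance 0.02 reads), all 10 members included, and gave the depth, counting errors and floors, which cover counting error only. On 2 kb of exon, 1 read equals 0.0825 to 0.0959 TPM. Whether a read here is a single read or a pair is not given. Deviations of same-numbered replicates from their group means had correlations of 0.03, -0.02 and 0.02 over all genes tested, and numbers were not taken as pairs. With so few libraries these correlations do not settle whether the replicates were paired. No member had a near-identical copy in another gene, but Pcbp1, Pcbp2, Fbxl5, Cdc42bpa and Slc11a2 overlap genes on the opposite strand.

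The members and gene lists were chosen with earlier results of these data known. All members are named whatever their values, with Ncoa4, each list gene at an adjusted p under 0.05 (with none, those of the 2 smallest), and, per UTR, the 3 genes with a match and the smallest adjusted p. The alternatives changed the pseudocount (1 or 0.1), the filter (none, or a TPM averaging 5 or more), the scaling (centring on medians, quantile normalization, mitochondrial genes removed) and the test (no eBayes trend, limma-voom on rebuilt reads, a replicate block), or left out 1 library at a time. Ratios to Tbp, Actb and Hprt and levels per principal transcript were added after seeing the data. The UTR search used Python (3.11.15).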

Additional observations from a re-analysis of the deposited data

How the results depend on the processing

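Over 16 alternative fits and 3 reference ratios, Tfrc, Slc40a1 and Slc11a2 kept a positive log2 fold change (0.36 to 0.63, 0.39 to 0.60 and 0.04 to 0.24). Genes called numbered 163, 87 with a replicate block and 77 to 172 with 1 library left out. Control replicate 1 was the lowest control for 5 of the 9 members. The number of members with an adjusted p under 0.05 was 1, and 2 with a minimum TPM of 5, after median centring or quantile normalization, without mitochondrial genes or with limma-voom, 0 with the replicate block, and 0 to 2 with 1 library left out. Replicate numbers were not taken as pairs, and the labels do not say whether they are. The replicate block lowered the calls and gave Slc40a1 an adjusted p of 0.0654 (limma). With median centring 5 members did not overlap (3 as deposited), Aco1 and Steap3 being added on the lower side, against 30.4% of all genes.

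Counts of list genes with an adjusted p under 0.05 are to be read against the count over all genes, which moved too. That count was 750, 499 without a filter, 832 with a minimum TPM of 5, 970 with median centring, 824 with quantile normalization, 404 without an eBayes trend, 1418 with limma-voom, 161 with the block and 127 to 807 with 1 library left out. Uptake genes numbered 2, 4 with median centring or quantile normalization, 5 with limma-voom, 0 without an eBayes trend or with the block, and 0 to 3 with 1 library left out. Export genes numbered 2, 1 without a filter, with a mean TPM of at least 5 (which removes Cp) or with quantile normalization, 0 with the block, and 0 to 2 with 1 library left out. Chaperone and storage genes numbered 2, 1 without a filter, without a trend or with the block, and 1 to 2 with 1 library left out. Transcripts with described elements numbered 2, 1 without a filter or a trend, 0 with the block, and 0 to 3 with 1 library left out. Decay and transcription factors numbered 1, 2 with limma-voom, and 0 without a filter, without a trend, with the block or with 1 library left out. Genes with a 5′ UTR match numbered 10, 4 without a filter, 5 without a trend, 16 with limma-voom, 0 with the block, 2 with all 5 pairs, and 0 to 7 with 1 library left out. Those with a 3′ UTR match numbered 22, 53 with limma-voom, 6 with the block, 2 with all 5 pairs, and 5 to 25 with 1 library left out. Dropping the filter adds genes to the adjustment, and a library left out removes samples. The cause of the other moves was not tested.

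The sign changed for 6 of the 9 members, Pcbp2 (-0.12 as reported) among them. Aco1 was at -0.056 with median centring, -0.0035 with quantile normalization, -0.013 without mitochondrial genes and -0.026 with limma-voom. Pcbp1 was at 0.028 with quantile normalization. Against Tbp, Actb and Hprt, Fbxl5 was at 0.029, 0.12 and 0.012 and Pcbp1 at 0.032, 0.13 and 0.015, and against Actb Steap3 was at 0.045 and Pcbp2 at 0.020. With 1 library left out, Aco1 ranged from -0.027 to 0.022, Fbxl5 from -0.049 to 0.032, Ireb2 from -0.011 to 0.16, Pcbp1 from -0.053 to 0.059, the log2 difference of Tfrc/Slc40a1 from -0.049 to 0.092 and that of Ireb2/Aco1 from -0.0060 to 0.14.

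With 3 libraries a group, 95% intervals reached 0.10 to 0.27 on either side of a member's log2 fold change. These intervals are not adjusted for the number of genes, and the adjusted test asks for larger differences. Tfrc (0.49, adjusted p = 0.0549) and Pcbp2 (-0.12, adjusted p = 0.186, limma for each) did not pass it, although their intervals leave out 0.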
